A study of Rattus norvegicus with 30 samples.

Results

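The genes followed here serve salt, calcium and magnesium transport in the distal convoluted tubule (DCT) and the segment after it. They were 9 genes chosen by symbol, out of 32545 in the table of read counts, and each symbol was found once. Levels were read in 30 mRNAseq libraries from the right kidney of male Sprague-Dawley rats, an outbred strain, 15 from the cortex (Cx) and 15 from the outer medulla (OM). In each tissue 5 libraries came from rats on 0.4% NaCl (LS, replicates 1 to 5), 5 from rats on 4.0% NaCl for 14 d (HS14, replicates 6 to 10) and 5 from rats on 4.0% NaCl for 21 d (HS21, replicates 11 to 15). The series design gives LS as the state before the diet was switched, and the ages of the sequenced rats were not given in the sources used here, so that the diet and the days that passed cannot be told apart. No gene was altered in any group. The study describes the rats that gave this tissue as a group separate from those with continuous recordings. Cx and OM were dissected from the same 5 kidneys of each group, so that the tissues share rats, but nothing says that equal numbers mark the same rat.

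The DCT reabsorbs NaCl from the lumen through the thiazide-sensitive cotransporter NCC, encoded by *Slc12a3*. It is also the segment where urinary magnesium is set, by entry through the apical channel TRPM6. Its later part and the connecting tubule move calcium across the cell in 3 steps, which are apical entry through TRPV5, buffered diffusion on calbindin-D28k (*Calb1*) and basolateral exit through the Na/Ca exchanger NCX1 (*Slc8a1*) and the plasma membrane Ca-ATPase PMCA1 (*Atp2b1*). The list also held *S100g* (calbindin-D9k), *Pvalb* (parvalbumin, a Ca-binding protein of the early DCT) and *Cnnm2* (a basolateral protein needed for magnesium reabsorption). PMCA1 and CNNM2 are made in many other cells of the kidney as well.

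The libraries held 5408126 to 21842843 counted read pairs, with the fewest in OM HS14 replicate 10. In the study's mapping summaries that library also had the largest share in introns and the smallest share of mapped reads of the 30 libraries. Levels are given as CPM, the count of a gene per 1000000 counted read pairs of its library, after TMM scaling over the 30 libraries. The tissue labels were checked against markers. In Cx LS the summed level of 8 proximal tubule markers was 19232 to 21148 CPM, against 2617 to 15085 CPM in OM LS, while 5 thick ascending limb markers summed to 1341 to 1967 CPM in Cx LS and 10126 to 21485 CPM in OM LS. OM LS replicate 2 stood apart, with the highest proximal tubule sum of the 15 OM libraries, and results of the OM that rest on it are given with and without it. Of the 6 DCT markers *Pvalb* had 0 counts in all 30 libraries, which allows at most 0.149 to 0.536 CPM per library from a count of 3, for counting error only. The other 8 genes were detected in every Cx library.

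The files place the genes on the rat genome build Rnor_6.0. The Na-Cl cotransporter gene *Slc12a3* lies at chr19:11106033-11144641, *Trpm6* at chr1:234479289-234596971, *Trpv5* at chr4:70947717-70974006 and *Calb1* at chr5:29538380-29562773. *Slc8a1* lies at chr6:4258991-4520604, *Atp2b1* at chr7:41114697-41220579, *Cnnm2* at chr1:266530477-266649398, *S100g* at chrX:33443186-33445709 and *Pvalb* at chr7:119429019-119441487. The values are for whole genes, summed over their exons. *S100g* lies within the span of *Ctps2* on the opposite strand, and the libraries were not strand-specific, so its reads cannot be told from those of *Ctps2* where exons meet.

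Promoter sequences from RefSeq (build GRCr8) were held for 7 of the 9 genes, with no entry for *Calb1* and *S100g*. The 250 bases before the annotated start are shown for 3 genes that were higher in the Cx at HS21 and for *Atp2b1*, the 1 gene that was lower, to set windows of genes that moved in opposite directions side by side. Capitals mark CG dinucleotides. The stretches are chr19:10675051-10675300 (minus strand) for *Slc12a3*, chr4:71529383-71529632 (minus strand) for *Trpv5*, chr6:19023309-19023558 (plus strand) for *Slc8a1* and chr7:35622211-35622460 (plus strand) for *Atp2b1*.
Slc12a3: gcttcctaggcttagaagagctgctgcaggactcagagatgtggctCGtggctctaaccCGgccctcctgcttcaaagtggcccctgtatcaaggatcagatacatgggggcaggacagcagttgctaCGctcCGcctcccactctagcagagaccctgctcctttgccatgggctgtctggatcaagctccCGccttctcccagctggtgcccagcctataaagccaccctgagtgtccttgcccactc
Trpv5: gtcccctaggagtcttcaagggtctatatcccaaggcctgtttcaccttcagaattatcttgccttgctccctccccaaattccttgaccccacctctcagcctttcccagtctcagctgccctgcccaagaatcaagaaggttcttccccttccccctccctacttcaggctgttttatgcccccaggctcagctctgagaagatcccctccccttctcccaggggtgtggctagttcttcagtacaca
Slc8a1: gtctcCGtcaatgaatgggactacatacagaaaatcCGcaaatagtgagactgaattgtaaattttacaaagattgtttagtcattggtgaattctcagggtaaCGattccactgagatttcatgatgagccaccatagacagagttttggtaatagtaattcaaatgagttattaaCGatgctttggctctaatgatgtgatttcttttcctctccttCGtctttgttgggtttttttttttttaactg
Atp2b1: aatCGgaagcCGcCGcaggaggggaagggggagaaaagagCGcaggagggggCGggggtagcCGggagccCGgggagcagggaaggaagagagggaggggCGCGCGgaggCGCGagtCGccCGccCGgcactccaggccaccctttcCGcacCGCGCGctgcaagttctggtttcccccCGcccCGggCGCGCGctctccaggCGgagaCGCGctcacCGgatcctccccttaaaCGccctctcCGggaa
The 250 bases held 5 CG in *Slc12a3*, 0 in *Trpv5*, 5 in *Slc8a1* and 30 in *Atp2b1*, beside a median of 5 over all 33469 promoter entries, and 94.7% of entries held fewer than *Atp2b1*. *Cnnm2* had 15 CG, *Pvalb* 21, and the 3 annotated starts of *Trpm6* between 2 and 6. GC content was 59.2% in *Slc12a3*, 54.4% in *Trpv5*, 35.2% in *Slc8a1* and 72.8% in *Atp2b1* (median of all entries 51.2%).

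A short search of these windows on both strands looked for 4 motifs, which did not overlap one another in any of the genes. The TATA box TATAAA, found in 12.9% of all entries, occurred in *Slc12a3* alone of these genes, at position -32 from the start. The GC box GGGCGG (30.5% of entries) occurred 3 times in *Atp2b1*, at -201, -130 and -72, and once each in *Cnnm2* and *Pvalb*. The CCAAT box CCAAT (34% of entries) was found in *Slc8a1*, *Cnnm2* and 1 *Trpm6* entry. AGAACA, 1 arm of the palindrome that steroid receptors bind (17.5% of entries), was found in *Pvalb* and 2 *Trpm6* entries. These are matches of letters only.

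On the LS diet the Cx levels per kilobase of gene length (CPM per kb, mean ± SD, n = 5) fell into 3 tiers. *Calb1* (301 ± 51.8) and *Slc12a3* (244 ± 17.9) stood highest, and their ranges of 226 to 355 and 224 to 272 overlapped. *Slc8a1* (33.1 ± 3.23), *Cnnm2* (31.0 ± 2.24) and *Atp2b1* (24.6 ± 0.922) formed the middle tier, where *Slc8a1* and *Cnnm2* overlapped and both lay above *Atp2b1*. The apical channels *Trpm6* (8.45 ± 0.941) and *Trpv5* (6.53 ± 0.875) were lower by more than an order of magnitude than the cotransporter. *S100g* came last at 4.54 ± 0.822, with 18 to 35 reads per LS library, and each of these 3 overlapped its neighbour in the order.

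In the Cx the genes of the apical membrane, *Calb1* and *Slc8a1* were raised after 21 d of the HS diet, whereas *Atp2b1* fell. At HS21 5 of the 8 genes tested were raised against LS (*Slc12a3*, *Trpm6*, *Trpv5*, *Calb1* and *Slc8a1*), by 1.63- to 1.78-fold, and 1 was lowered (*Atp2b1*, to 0.698 of the LS level). At HS14 only *Trpm6* passed the test. At an unadjusted *P* under 0.05 there were 4 raised and 0 lowered at HS14, beside 1284 and 1178 of all 14181 genes. Calls used edgeR's quasi-likelihood test with *P* adjusted over all genes tested (Benjamini-Hochberg, under 0.05), and *Pvalb* was not tested for lack of reads. The comparisons of HS14 and of HS21 with LS share the same LS rats.

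These counts stand beside those of all genes. At HS14 1.14% of 14181 genes were raised and 1.18% lowered, and at HS21 18.9% of 14299 genes were raised and 20.5% lowered. With scaling by total counts the HS21 split turned from 2702 raised and 2936 lowered to 4401 and 1653, with the median of all genes at 0.13 on the log2 scale, and 5 members remained raised and 1 lowered. With the share of intronic reads as a covariate the calls over all genes went to 699 raised and 893 lowered, the 5 raised calls among the members were lost and that of *Atp2b1* was not, as given with the marker lists of other cell types. The median log2 ratio of the 8 tested genes was 0.44 at HS14 and 0.73 at HS21, against -0.0021 and 0.0046 for all genes. At HS21 the LS and HS21 libraries did not overlap for 3 of the genes, *Slc12a3* and *Trpm6* above (12% of all genes) and *Atp2b1* below (14.6% of all genes).

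**Figure D1:**
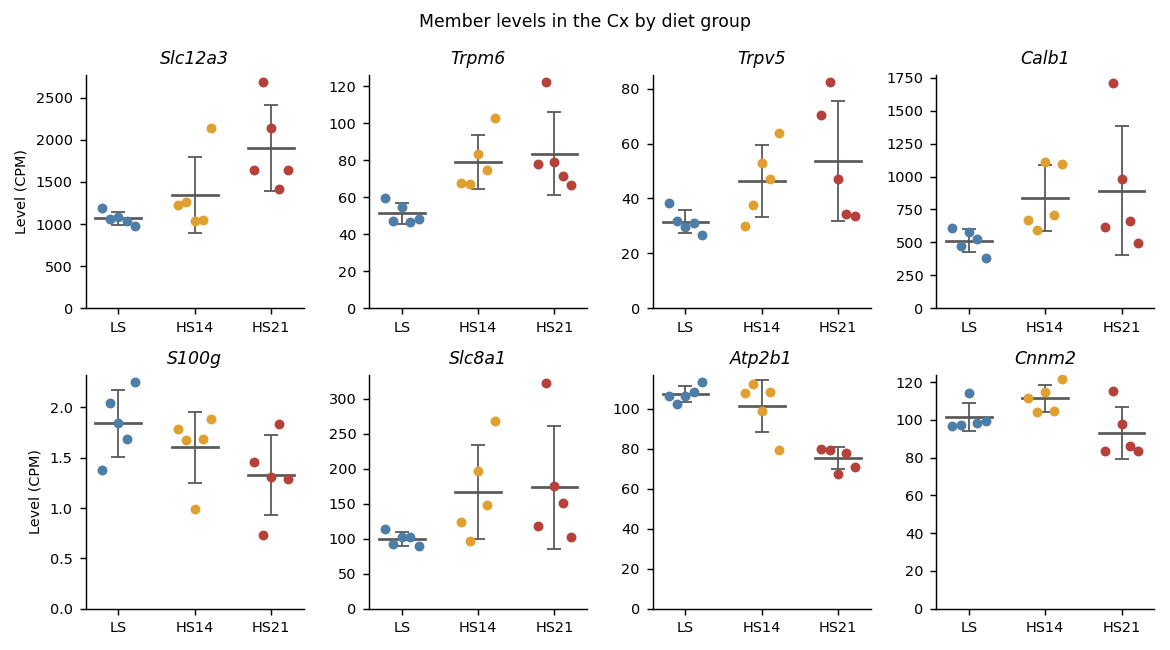
Levels of 8 genes in the Cx (y axis, CPM, from 0) by diet group (x axis), with 1 point per library and bars for the mean ± SD (n = 5). *Slc12a3* and *Trpm6* at HS21 lie above all 5 LS libraries, *Atp2b1* at HS21 lies below them, and the HS21 points of *Trpv5*, *Calb1* and *Slc8a1* reach down into the LS range.

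**Figure D2:**
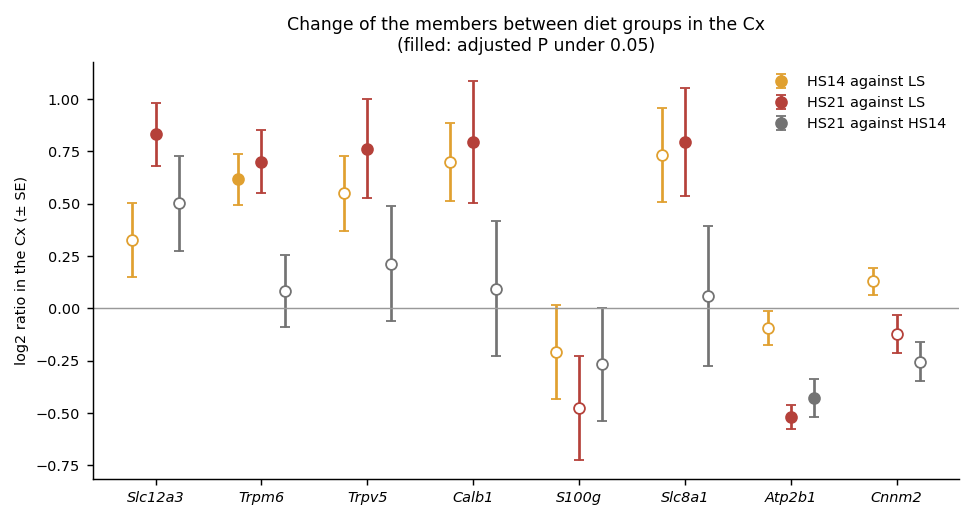
The log2 ratio (y axis, ± SE) of each gene (x axis) in the Cx for HS14 against LS, HS21 against LS and HS21 against HS14, with filled points at an adjusted *P* under 0.05. *Trpm6* is filled against LS at both times, *Slc12a3*, *Trpv5*, *Calb1* and *Slc8a1* only at HS21, and *Atp2b1* at HS21 against both other groups.

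The first apical gene, *Slc12a3*, had 1190.4, 1060.1, 1078, 1032 and 979 CPM in LS replicates 1 to 5. At HS14 it had 1231, 1265, 1042, 1051 and 2137 CPM in replicates 6 to 10, and at HS21 1638, 2683, 2140.1, 1417 and 1646 CPM in replicates 11 to 15. All 5 HS21 libraries were thus above all LS libraries, while at HS14 2 libraries lay within the LS range and replicate 10 stood far above the rest. The log2 ratio was 0.83 (SE 0.15, adjusted *P* = 0.00132) at HS21 and 0.33 (SE 0.18, adjusted *P* = 0.373) at HS14. HS21 against HS14 gave 0.50 (SE 0.23, adjusted *P* = 0.146). Without HS14 replicate 10 that last difference was 0.73 and passed the test (adjusted *P* = 0.0148, range 0.0148 to 0.305 over the libraries left out).

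*Trpm6*, the apical magnesium channel, was the 1 gene called at both times. It had 59.7, 47.3, 55.0, 46.5 and 48.4 CPM in the LS libraries. At HS14 it had 67.6, 67.3, 83.5, 74.6 and 103 CPM, and at HS21 78.3, 123, 79.3, 71.5 and 66.7 CPM. Every HS library exceeded every LS library at both times, a pattern shared by 2.71% of all genes at HS14 in that direction. The log2 ratio was 0.62 (SE 0.12, adjusted *P* = 0.0270) at HS14 and 0.70 (SE 0.15, adjusted *P* = 0.00360) at HS21, and HS21 differed from HS14 by 0.08 (SE 0.17, adjusted *P* = 0.768). The HS14 call was near the threshold and was lost without any 1 of LS replicates 2, 3, 4 and 5 or HS14 replicates 8 and 9 (adjusted *P* up to 0.0852), with the log2 ratio between 0.50 and 0.68. It was also lost when the 15 Cx libraries were fitted together (adjusted *P* = 0.0593, range 0.000166 to 0.0593 over the alternatives).

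*Trpv5*, the apical calcium channel of the late DCT and connecting tubule, had 38.2, 31.8, 29.7, 31.1 and 26.7 CPM in the LS libraries. It had 29.9, 37.7, 52.9, 47.0 and 63.7 CPM at HS14 and 70.3, 82.3, 47.2, 34.4 and 33.6 CPM at HS21. The HS21 libraries fell into 3 above the LS range and 2 within it. This gave a log2 ratio of 0.76 (SE 0.24, adjusted *P* = 0.0239) at HS21 and 0.55 (SE 0.18, adjusted *P* = 0.127) at HS14. HS21 differed from HS14 by 0.21 (SE 0.27, adjusted *P* = 0.618). Without LS replicate 3, LS replicate 5 or HS21 replicate 11 the HS21 call was lost (adjusted *P* up to 0.0581).

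Among the cytosolic Ca-binding proteins only *Calb1* was raised. It had 606, 472, 580, 524 and 385 CPM in the LS libraries. At HS14 it had 673, 591, 1113, 711 and 1096 CPM, and at HS21 614, 1707, 983, 660.3 and 496 CPM. The HS21 values spread over more than 3-fold and HS21 replicate 15 lay inside the LS range. On the log2 scale *Calb1* differed from LS by 0.80 (SE 0.29, adjusted *P* = 0.0491) at HS21 and by 0.70 (SE 0.19, adjusted *P* = 0.0743) at HS14. Between HS21 and HS14 the difference was 0.09 (SE 0.32, adjusted *P* = 0.861). The HS21 call was lost without any 1 of the 5 LS libraries or of HS21 replicates 12 and 13 (adjusted *P* up to 0.109), and without replicate 12 the log2 ratio was 0.43. DESeq2 and limma did not make it either.

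*S100g* had 1.38 to 2.25 CPM on LS, 0.995 to 1.88 CPM at HS14 and 0.730 to 1.83 CPM at HS21. The 3 ranges overlapped, on 11 to 35 reads per Cx library. Its log2 ratios of -0.21 (SE 0.22, adjusted *P* = 0.702) at HS14 and -0.47 (SE 0.25, adjusted *P* = 0.152) at HS21 did not pass the test.

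The basolateral genes diverged. *Slc8a1*, which exports calcium in exchange for Na, had 114, 92.1, 103, 102 and 89.2 CPM in the LS libraries. It had 123, 97.0, 196, 148 and 268 CPM at HS14 and 119, 322, 175, 150.3 and 102 CPM at HS21. In each HS group 4 of the 5 libraries were above the LS range and 1 within it. The log2 ratio was 0.79 (SE 0.26, adjusted *P* = 0.0296) at HS21 and 0.73 (SE 0.22, adjusted *P* = 0.109) at HS14. HS21 differed from HS14 by 0.06 (SE 0.33, adjusted *P* = 0.914). Without any 1 of LS replicates 2, 3, 4 and 5 the HS21 call was lost (adjusted *P* up to 0.0659), and without HS21 replicate 12 the log2 ratio was 0.46. It was not made by limma.

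*Atp2b1*, which pumps calcium out against ATP, had 106, 103, 106, 108 and 114 CPM in the LS libraries. It had 108, 112, 98.9, 108 and 79.5 CPM at HS14 and 79.9, 79.3, 67.5, 77.9 and 71.0 CPM at HS21. At HS14 4 of the libraries lay near the LS values, and HS14 replicate 10, the library with the most *Slc12a3* in its group, lay at the HS21 level. Against LS the log2 ratio was -0.52 (SE 0.056, adjusted *P* = 6.03e-05) at HS21 and -0.09 (SE 0.081, adjusted *P* = 0.625) at HS14. HS21 lay below HS14 as well (-0.43, SE 0.090, adjusted *P* = 0.0131), although replicate 10 put the 2 groups in overlap. The change against LS was the smallest of the 6 called at HS21 and the 1 with the smallest SE, and it was called in each of the 10 fits that left out 1 library.

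*Cnnm2*, the magnesium gene of the basolateral side, was not called in any Cx comparison. It had 96.7 to 114 CPM on LS, 104 to 122 CPM at HS14 and 83.3 to 115 CPM at HS21, and the 3 ranges overlapped. The log2 ratio was 0.13 (SE 0.064, adjusted *P* = 0.323) at HS14 and -0.12 (SE 0.091, adjusted *P* = 0.307) at HS21. Without HS21 replicate 12 the HS21 value was -0.20 and passed the test (adjusted *P* = 0.0377, range 0.0377 to 0.560 over the libraries left out). HS21 against HS14 gave -0.25 (SE 0.094, adjusted *P* = 0.0843), and without the same library this was -0.34 and passed (adjusted *P* = 0.0238, range 0.0238 to 0.172 over the libraries left out). In the comparison of HS21 with HS14 as a whole 0 of the 8 genes were raised and 1, *Atp2b1*, was lowered, beside 6.5% and 9.69% of all genes. At an unadjusted *P* under 0.05 there were 1 raised and 2 lowered, beside 2257 and 2573 of all 14395 genes, and DESeq2 and limma each also called *Atp2b1* alone. With the share of intronic reads as a covariate *Atp2b1* was not called (-0.20, adjusted *P* = 0.398, range 0.000716 to 0.398 over the alternatives), and of all genes 2 were raised and 16 lowered.

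Several genes were high in the same libraries. HS21 replicate 12 had the highest level of the 15 Cx libraries for all 5 raised genes, and HS14 replicate 10 ranked 2 or 3 for each of them. Of the 15 Cx libraries HS21 replicate 12 also had the lowest proximal tubule marker sum (11220.4 CPM). In the study's mapping summary it had the largest share in introns of these libraries. Whether these traits go together was not tested. HS14 replicate 8 was near the top for *Calb1* and *Trpm6* but had the lowest *Slc12a3* level of the 10 HS libraries, 1042 CPM. Relative to *Slc12a3* in the same library, the log2 level of *Calb1* was -1.34 to -0.90 on LS and -1.10 to 0.10 at HS14. At HS21 it was -1.73 to -0.65. The medians on LS, at HS14 and at HS21 were -0.98, -0.87 and -1.12 for *Calb1* and -4.33, -4.18 and -4.45 for *Trpm6*. They were -5.05, -5.06 and -5.36 for *Trpv5* and -3.39, -3.00 and -3.61 for *Slc8a1*. For *Atp2b1* they were -3.34, -3.49 and -4.53, for *Cnnm2* -3.39, -3.46 and -4.30, and for *S100g* -9.09, -9.45 and -10.2. These ratios were not tested.

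**Figure D3:**
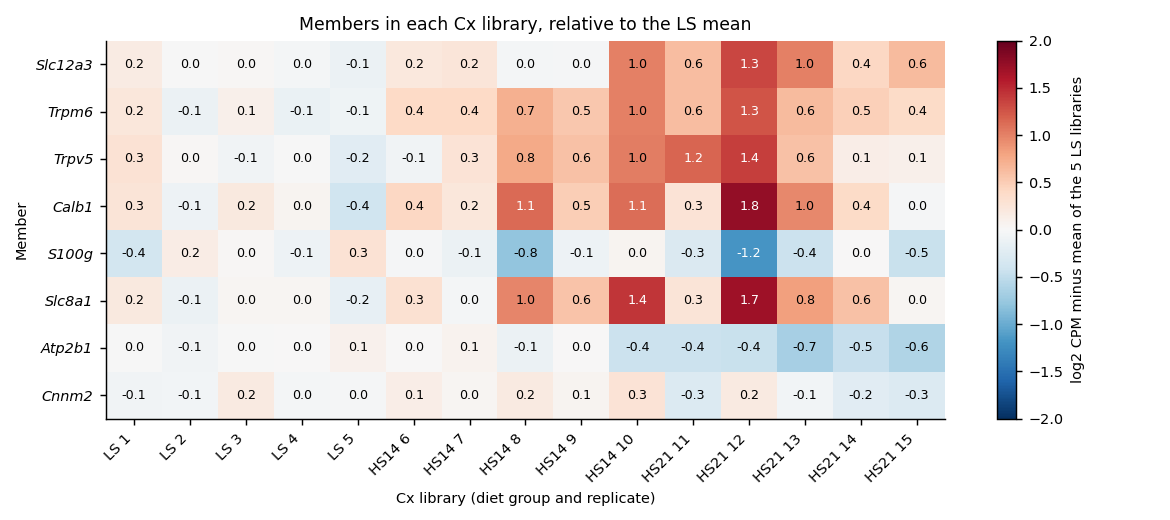
Each cell is the log2 CPM of a gene (rows) in 1 Cx library (columns, named by diet group and replicate) minus its mean in the 5 LS libraries, with red above and blue below. HS21 12 carries the highest values for *Slc12a3*, *Trpm6*, *Trpv5*, *Calb1* and *Slc8a1*, and the *Atp2b1* row is blue in HS14 10 and in all 5 HS21 libraries.

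Other genes of the same transport chains were read from lists chosen by function. The list counts at HS21 that follow stand beside 18.9% of all genes raised and 20.5% lowered. Of 10 further calcium genes, 4 rose at HS21 (*Trpv6*, *Atp2b2*, *Atp2b4* and the mitochondrial exchanger *Slc8b1*) and 3 fell (*Pth1r*, *Cyp24a1* and *Cyp27b1*, the parathyroid hormone receptor and the enzymes that inactivate and activate vitamin D), with a list median of 0.18. *Trpv6*, the channel related to *Trpv5*, had the largest ratio at 2.45-fold (log2 1.29, SE 0.39, adjusted *P* = 0.0202) but stood at 6 to 49 reads in the LS and HS21 libraries. *Cyp27b1* had a log2 ratio of -1.09 (SE 0.33, adjusted *P* = 0.0206). At HS14 the list median was 0.07, and the 10 ratios lay between -0.48 and 0.47 with no adjusted *P* under 0.0501.

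The 2 calcium pumps with the most reads moved apart at HS21. *Atp2b4* (PMCA4) rose 1.84-fold, a log2 ratio of 0.88 (SE 0.11, adjusted *P* = 0.000164), beside the fall of *Atp2b1*. Per kilobase *Atp2b4* stood at 10.8 ± 0.778 CPM on LS (SD, n = 5), below *Atp2b1* at 24.6 ± 0.922, without overlap. At HS21 the levels per kilobase were 19.8 ± 3.74 for *Atp2b4* and 17.2 ± 1.26 for *Atp2b1*, and the 2 ranges overlapped.

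Of 17 further magnesium genes 16 were tested, with a median of 0.10 at HS21. There 2 rose (*Cnnm4* and *Slc41a2*) and 3 fell, among them *Egfr* and *Pcbd1*, beside 18.9% and 20.5% of all genes. In these counts the list did not stand above all genes. *Slc41a2*, a magnesium transporter, rose 1.81-fold (adjusted *P* = 0.0225). *Egfr*, the receptor of the magnesium-conserving hormone EGF, had a log2 ratio of -0.81 at HS21 and was also lower at HS21 than at HS14 (-0.78, SE 0.13, adjusted *P* = 0.00711). The other 11 tested genes of the list were not called at HS21.

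Of 13 other DCT genes 9 rose and 2 fell at HS21, with a median of 0.55. They include the kinases *Wnk1*, *Wnk4* and *Stk39*, which activate the cotransporter, and the basolateral potassium channel gene *Kcnj10*. *Klhl3*, the adaptor through which WNK kinases are marked for degradation, rose as well (log2 0.79, SE 0.15, adjusted *P* = 0.00210). The 2 that fell were *Cul3* and *Kcnj16*. *Tmem52b* had the largest ratio of the list (log2 0.86, SE 0.17, adjusted *P* = 0.00216). At HS14 the median was 0.31, with ratios from 0.04 to 0.50 of which the largest, for *Tmem52b*, had an adjusted *P* of 0.272.

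Genes of the neighbouring segments moved in the same comparison, and the part of cell numbers in these results was not tested. In bulk tissue fewer cells of a type and less RNA per cell cannot be told apart. At HS21 9 of 11 connecting tubule and principal cell genes rose (median 0.80), led by the water channel gene *Aqp2* (2.15-fold) and the Na channel subunits *Scnn1b* (1.98-fold) and *Scnn1g* (1.92-fold), as did 5 of 5 intercalated cell markers (median 0.69). All 8 proximal tubule markers fell (median -0.80), their sum going from 19232 to 21148 CPM on LS to 11220.4 to 14738 CPM at HS21. In the same comparison 7 of 7 leukocyte markers rose (median 1.78), and their sum was 844 to 996 CPM on LS and 1167 to 3105 CPM at HS21. At HS14 the proximal tubule sum was 14080 to 19529 CPM, and its lowest value was in replicate 10, the library highest in *Slc12a3* of that group. The markers had moved in part at that time, where 4 of 7 leukocyte markers rose (*Ptprc*, *Cd3e*, *Itgam* and *Itgb2*, list median 0.78), *Aqp2* rose 1.78-fold (adjusted *P* = 0.0331) and 1 of 8 proximal tubule markers, *Slc22a6*, fell (log2 -0.41, adjusted *P* = 0.0153).

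The share of reads in introns, a sign of RNA processing and quality, did not overlap between Cx LS and Cx HS21 in the study's own mapping summary. It was higher at HS21. At HS14 it overlapped with LS, but HS14 replicate 10 lay within the HS21 range and above the other HS14 libraries. With that share as a covariate in the edgeR fit the 5 raised genes were not called at HS21. Their log2 ratios were 0.43 for *Slc12a3*, 0.28 for *Trpm6*, 0.09 for *Trpv5*, 0.13 for *Calb1* and 0.17 for *Slc8a1*. The adjusted *P* ranged over the alternatives, this one being the highest, from 1.51e-07 to 0.327, 3.26e-05 to 0.535, 0.00333 to 0.912, 0.0233 to 0.908 and 0.0129 to 0.854 in the same order. *Atp2b1* was still lowered (-0.51, adjusted *P* = 0.0200, range 3.38e-14 to 0.0200). Intron share and diet cannot be told apart in this comparison.

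**Figure D4:**
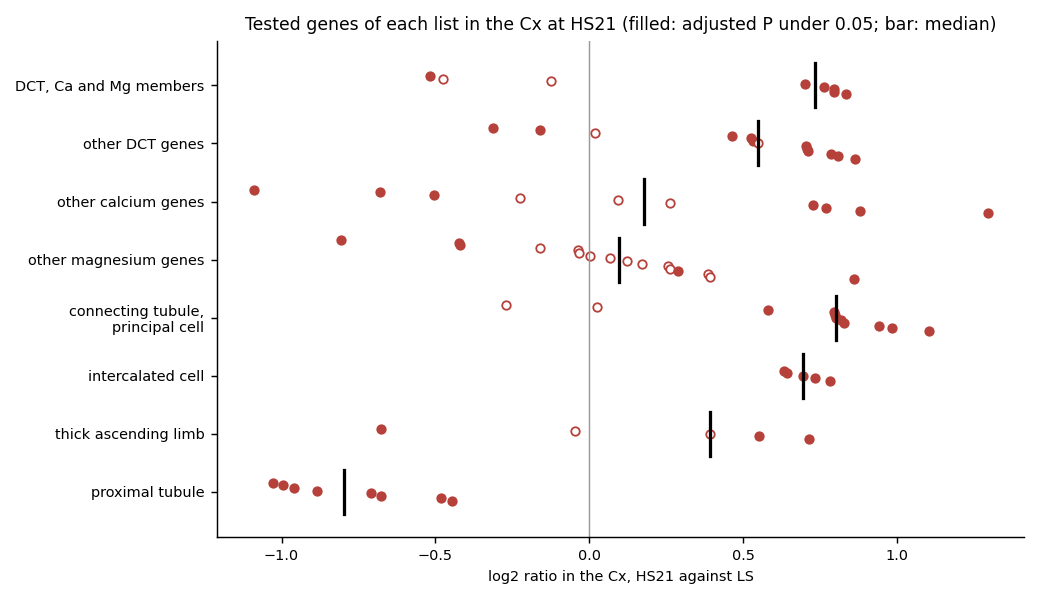
The log2 ratio in the Cx for HS21 against LS (x axis) of every tested gene in 8 lists (y axis), with filled points at an adjusted *P* under 0.05 and a bar at the list median. The medians are 0.73 for the DCT, calcium and magnesium genes followed here, 0.55 for other DCT genes, 0.80 for connecting tubule and principal cell genes and -0.80 for proximal tubule markers.

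Between tissues on the LS diet, all 8 genes tested were lower in the OM than in the Cx without overlap, beside 19.5% of all genes called lower and 15.7% lower without overlap. *Trpv5* and *S100g* had too few OM reads for the OM tests of diet and passed the read filter here through their Cx libraries. Their place among the 8 is therefore no separate support for lower OM levels. *Trpv5*, *Calb1* and *Slc12a3* had the largest differences. The calcium channel *Trpv5* had 0 to 3.59 CPM in OM LS (0 to 42 reads) and a log2 ratio of -5.38 (SE 0.82, adjusted *P* = 0.000531). *Calb1* had 0.542 to 56.2 CPM in OM LS (log2 -5.31, SE 1.17, adjusted *P* = 0.00456) and *Slc12a3* 8.61 to 354 CPM (log2 -3.70, SE 1.07, adjusted *P* = 0.0189). In all 3 the highest value was OM LS replicate 2, and without it the log2 ratios were -7.57, -7.84 and -6.27.

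The other 5 genes depended less on that library. *Slc8a1* differed from the Cx by -3.30 on the log2 scale (SE 0.32, adjusted *P* = 3.39e-05), *Trpm6* by -1.61 (SE 0.16, adjusted *P* = 4.37e-05) and *S100g* by -1.52 (SE 0.31, adjusted *P* = 0.00324). *Cnnm2* differed by -1.26 (SE 0.13, adjusted *P* = 5.56e-05), and *Atp2b1* had the smallest difference at -0.57 (SE 0.15, adjusted *P* = 0.0119). Without OM LS replicate 2 these were -3.75, -1.80, -1.90, -1.40 and -0.70 in the same order, and all 8 genes remained lower in each fit that left out 1 library.

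The related lists did not share one direction between the tissues. Of 9 other calcium genes tested 5 were lower in the OM and 2 higher (median -1.75), led by *Cyp27b1* (log2 -5.74, SE 0.45, adjusted *P* = 9.35e-06). Of 16 other magnesium genes 8 were higher and 3 lower (median 0.38), among them the thick ascending limb claudins *Cldn19* (log2 3.22, SE 0.27, adjusted *P* = 1.50e-05) and *Cldn16* (log2 2.26, SE 0.085, adjusted *P* = 2.39e-07), which form the paracellular path for magnesium. Of 13 other DCT genes 5 were lower and 1, *Stk39*, was higher (median -0.16). Over all genes 21.3% were higher and 19.5% lower.

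**Figure D5:**
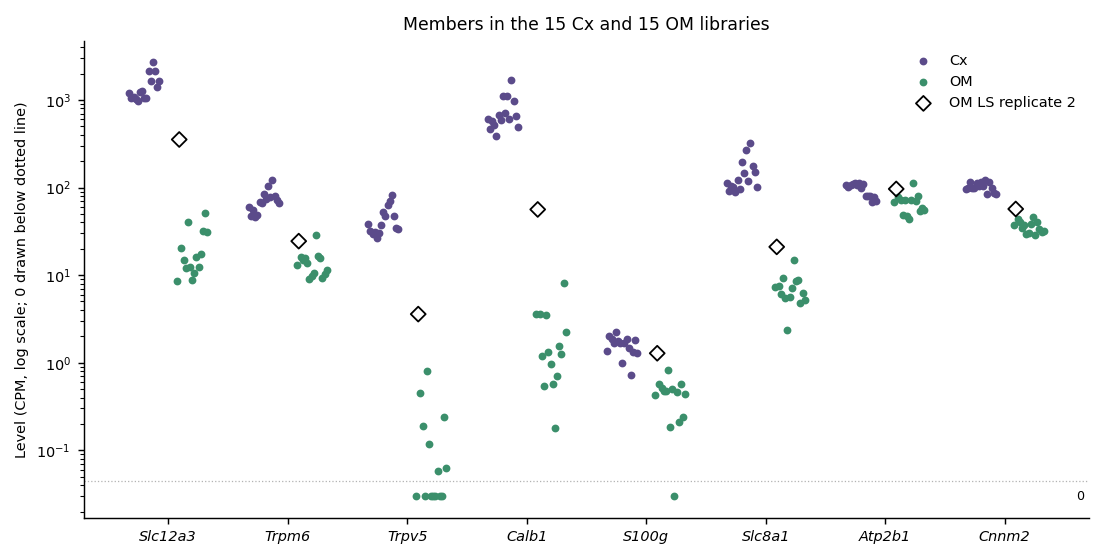
Levels (y axis, CPM on a log scale, 0 drawn under the dotted line) of 8 genes (x axis) in the 15 Cx and 15 OM libraries, with OM LS replicate 2 as an open diamond. The diamond is the highest OM point for *Slc12a3*, *Trpv5*, *Calb1*, *S100g*, *Slc8a1* and *Cnnm2*. OM HS14 replicate 10, the library with the fewest counted read pairs and the largest share in introns, is the highest for *Trpm6* and *Atp2b1*.

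In the OM the tests of diet called 0 of these genes. Against LS 6 genes had enough reads to be tested, and 0 were called by edgeR at HS14 (0.00694% of all genes) and 0 at HS21 (0.769% of all genes). DESeq2 and limma also called 0, but DESeq2 gave no adjusted *P* for *Slc12a3* and *Calb1* in either comparison. At an unadjusted *P* under 0.05 *Calb1* was lower at HS14 and *Cnnm2* at HS21. HS21 against HS14 gave 0 called genes among the members and 0% of all 14499 genes, and 0 members by DESeq2 or limma. At an unadjusted *P* under 0.05 there were 0 members, beside 337 raised and 210 lowered of all genes.

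The OM estimates of the Cx-rich genes turned on 1 library. *Slc12a3* had 8.61, 354, 20.4, 14.8 and 12.2 CPM in OM LS replicates 1 to 5. It had 40.1, 12.3, 8.69, 10.6 and 15.9 CPM at HS14 and 12.3, 17.5, 32.2, 50.6 and 30.9 CPM at HS21. The log2 ratio at HS21 was -1.50 (SE 1.03, adjusted *P* = 0.690) with OM LS replicate 2 and 1.03 (adjusted *P* = 0.297) without it. For *Calb1* the corresponding values were -2.21 (SE 1.21) and 0.29. At HS14 the log2 ratio was -2.22 (SE 1.07) for *Slc12a3* and 0.32 without that library, and for *Calb1* it was -3.24 (SE 1.23) and -0.74.

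The other 4 genes tested in the OM also moved with OM LS replicate 2, and at HS14 with OM HS14 replicate 10 as well. *Atp2b1* had 49.1 to 96.4 CPM on LS, 43.9 to 114 CPM at HS14 and 53.8 to 80.4 CPM at HS21. Its log2 ratio at HS21 was -0.19 (SE 0.18, adjusted *P* = 0.811), against -0.52 in the Cx. *Trpm6* had 13.04 to 24.4 CPM on LS, 8.95 to 28.6 CPM at HS14 and 9.32 to 16.5 CPM at HS21, and its HS21 estimate was -0.41 on the log2 scale (SE 0.22, adjusted *P* = 0.552). *Cnnm2* gave -0.36 (SE 0.15, adjusted *P* = 0.374) at HS21. *Slc8a1* gave -0.59 (SE 0.35, adjusted *P* = 0.606) at HS21 and -0.54 (SE 0.48, adjusted *P* = 0.994) at HS14. Without OM LS replicate 2 the HS21 values were -0.08, -0.25, -0.23 and -0.17 for *Atp2b1*, *Trpm6*, *Cnnm2* and *Slc8a1*, and the HS14 value of *Slc8a1* was -0.11. At HS14 the estimates of *Atp2b1*, *Trpm6* and *Cnnm2* were -0.06 (SE 0.28), -0.25 (SE 0.33) and -0.22 (SE 0.18), each with an adjusted *P* of 0.994. Without OM HS14 replicate 10 the HS14 values were -0.31, -0.65, -0.32 and -0.97 for *Atp2b1*, *Trpm6*, *Cnnm2* and *Slc8a1*.

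A difference between the tissues in the response to the diet was tested as an interaction, the OM log2 ratio minus the Cx log2 ratio. For these genes 0 of 8 were called by edgeR at HS14 (0% of all 15091 genes) and 0 of 8 at HS21 (0.665% of all genes). At an unadjusted *P* under 0.05 there were 4 at HS14 and 5 at HS21, all negative, beside 281 positive and 278 negative of all genes at HS14 and 1001 and 1366 of all 15194 genes at HS21. DESeq2 called 0 and 1, with no adjusted *P* for *Slc12a3* at HS14. *Trpm6* came nearest, with -1.12 (SE 0.27, adjusted *P* = 0.0653) at HS21, and passed with DESeq2 (adjusted *P* = 0.00755, range 0.00755 to 0.0894 over the alternatives), with scaling by total counts (-1.19) and without the library OM LS 2 (-0.93, adjusted *P* = 0.0289). Over all genes DESeq2 called 337 positive and 201 negative of 14851, and total count scaling 57 and 54 of 15194. Without OM LS 2 the calls were 729 and 546 of 15391, beside 68 and 33 in the main fit. Over fits that left out 1 replicate number in both tissues the adjusted *P* of *Trpm6* was 0.0494 to 0.169, the lowest without number 2 (-0.90). Without number 2 the interaction of *Slc12a3* went from -2.34 to 0.22 and that of *Calb1* from -2.99 to -0.44. *Atp2b1* had an interaction of 0.32 (SE 0.19, adjusted *P* = 0.433), so that its fall in the Cx was not shown to differ from the OM. At HS21 *Trpv5* had -3.95 (SE 1.30, adjusted *P* = 0.158), *Slc8a1* -1.39 (SE 0.46, adjusted *P* = 0.158), *S100g* -0.25 (SE 0.45, adjusted *P* = 0.834) and *Cnnm2* -0.24 (SE 0.18, adjusted *P* = 0.547), and without number 2 *Trpv5* had -1.77. *Trpv5* and *S100g* had too few OM reads for an OM test of diet, so their interactions rest on few reads. *Trpv5* had 0 to 4 reads per OM HS21 library and 42 in OM LS replicate 2.

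Likeness of pattern was measured as Pearson's *r* of log2 CPM over the 15 Cx libraries, among 13344 protein-coding genes and as a description only, since the libraries share their diet groups. Among the 5 genes nearest to *Slc12a3* were *Sgca* (*r* = 0.967), *Kcnj10* (0.961), *Tmem72* (0.958) and *Stk39* (0.957), of which *Kcnj10* and *Stk39* are in the DCT list. Nearest to *Trpm6* were *Hspb6* (0.943), *Sbspon* (0.936), *Adamtsl3* (0.922), *Rab25* (0.917) and *Pgam2* (0.912). Nearest to *Trpv5* were *Rad50* (0.936), *Slc16a7* (0.933), *Uba6* (0.927), *Grhl2* (0.920) and *Trove2* (0.915). Among the members, *Slc8a1* ranked 8 (*r* = 0.910), *Calb1* 24 (0.902), *Trpv5* 55 (0.875) and *Slc12a3* 243 (0.795) in likeness to *Trpm6*, and *Trpm6* ranked 20 for *Trpv5*. For *Slc12a3* the nearest member was *Trpm6* at rank 485, and *Atp2b1* came near the end of the order at rank 12952 (*r* = -0.83).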

How the data were processed

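All values come from 1 deposited table of 30 poly(A)-selected, unstranded libraries. Per the submitters' processing notes and the methods supplement, reads were aligned to Rnor_6.0 (HISAT2 2.0.5) and counted per gene (featureCounts 1.5.0-p3). The deposited counts are whole read pairs without normalization and are the basis of all results. The FPKM values deposited by the authors, scaled by gene length and library, were used in 1 alternative fit as log2(FPKM + 1). The columns of the authors' own DESeq2 comparisons were not used (a mean signal per group, as counts divided by size factors, the log2 fold change of the groups and the p-values of the authors' test).

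Groups came from the labels, with 5 libraries each. Tests between tissues treat the libraries as separate, although Cx and OM came from the same kidneys. Pairs of groups were compared with edgeR 4.0.16 (R 4.3.3) from their 10 libraries, and the interaction from 20, after filterByExpr, TMM scaling and a quasi-likelihood F-test, with Benjamini-Hochberg adjustment over all genes tested (threshold 0.05). Levels are CPM, with a prior count of 2 for log2 CPM, and per kilobase of the deposited gene length where genes were compared. The depth, 5408126 to 21842843 counted read pairs, limits *S100g* most. *Pvalb* had no counts in any library, and the reason was not tested. No library copied another of its group (chi-square per gene at least 7.29 in 60 pairs).

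The 9 genes were followed in every comparison that tested them, and of the other lists the 8 called genes with the largest log2 ratio at a mean of at least 1 CPM, genes named beyond these being chosen after their values were seen. Some list genes are not reported here by name. The members and lists were chosen with earlier results of these data known. Of the 6 skeletal muscle markers 5 were found and *Myh4* was not analysed here; their sum was 3.68 to 4.74 CPM in Cx LS and 5.77 to 10.9 CPM in Cx HS21. Of 4 vascular smooth muscle markers 1 rose in the Cx at HS21. Of 5 thick ascending limb markers 2 rose and 1 fell there, and of 6 DCT markers, 2 of them members that were called, 4 rose.

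Alternatives were DESeq2 1.42.0, other scaling, no filter, limma 3.58.1 on FPKM, all 15 libraries of a tissue in 1 fit, intron share as a covariate, the replicate number as a block and 90 fits that left a library out. The tests were tried on simulated data. Promoters came from RefSeq (GRCr8) and coordinates of genes from the deposited table (Rnor_6.0).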

Additional observations from a re-analysis of the deposited data

Results flagged for a closer look

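Of 48 sets of 5 libraries (a gene with reads in a tissue and diet group), 6 held a library whose gap to the next exceeded 0.71 of the range, and chance gives about 1 in 20. In the Cx these were *Slc12a3* in HS14 replicate 10 (2137 CPM), *Trpm6* in HS21 replicate 12 (123 CPM), *S100g* in HS14 replicate 8 (0.995 CPM) and *Cnnm2* in LS replicate 3 (114 CPM). In the OM both were in LS replicate 2, with *Slc12a3* at 354 CPM and *S100g* at 1.28 CPM.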

How the results depend on the processing

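Outside the fits that left a library out, 408 alternative values of single genes kept their direction and their side of the threshold, 6 passed it anew, 10 no longer passed and 24 changed sign. The cause was not tested for any of them, except where samples were removed.

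The number of genes called changed as follows. For Cx HS14 against LS DESeq2 called 3 (*Trpm6*, *Trpv5* and *Calb1*) and the fit of 15 Cx libraries 0. Over all genes DESeq2 raised 498 and lowered 422 of 15546 there, and the fit of 15 libraries 83 and 143 of 14617. The main fit raised 162 and lowered 168 of 14181. For Cx HS21 against LS intron share as a covariate left 1 (*Atp2b1*), with 699 raised and 893 lowered of all 14299 genes. For HS21 against HS14 it left 0, with 2 raised and 16 lowered of all 14395 genes. The fit of 15 libraries called 2 there (*Atp2b1* and *Cnnm2*), with 1500 raised and 1905 lowered of all genes, beside 935 and 1395 in the main fit. For the OM against the Cx DESeq2 called 5, giving no adjusted *P* for *Slc12a3*, *Trpv5* and *Calb1*. Over all genes it called 3692 higher and 3253 lower of 18286, beside 3051 and 2794 of 14295 in the main fit. For the interaction at HS21 DESeq2, total count scaling and the removal of OM LS 2 (an alternative chosen after seeing the data, which also removed OM HS14 10 where HS14 was compared) each called 1 (*Trpm6*). With 1 library left out, the count was 0 to 3 for Cx HS14 against LS (0 without LS 2, 3, 4 or 5 or HS14 8 or 9). It was 3 to 6 for Cx HS21 against LS (3 without LS 3 or LS 5), 1 to 2 for Cx HS21 against HS14 and 0 to 1 for the interaction at HS21. Of all genes these fits raised 42 to 274 for Cx HS14 against LS and 2389 to 2749 for Cx HS21 against LS.

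These log2 ratios changed sign, most from values near 0. In the Cx, *Cnnm2* at HS21 was 0.0038 with total count scaling, and *Calb1* for HS21 against HS14 was -0.0035 with limma. For HS21 against HS14 intron share gave -0.17 for *Slc12a3*, -0.38 for *Trpm6*, -0.35 for *Trpv5*, -0.59 for *Calb1* and -0.82 for *Slc8a1*. In the OM for HS21 against HS14, *Slc8a1* was 0.0052 with total count scaling and 0.025 with limma, and intron share gave 0.36 for *Slc8a1*, 0.20 for *Trpm6* and 0.12 for *Atp2b1*. Without OM HS14 10 that comparison gave 0.38 for *Slc8a1*, 0.24 for *Trpm6* and 0.13 for *Atp2b1*. Against LS, *Slc12a3* was 0.35 at HS14 without OM LS 2 and OM HS14 10 and 1.03 at HS21 without OM LS 2, and *Calb1* was then 0.29 at HS21. The interaction without the same libraries was 0.0085 for *Slc12a3*, 0.20 for *S100g* and -0.12 for *Atp2b1* at HS14, and 0.22 for *Slc12a3* and 0.13 for *S100g* at HS21.

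With 1 library left out, sign changes gave these ranges. For Cx HS21 against HS14 they were -0.096 to 0.19 for *Trpm6*, -0.28 to 0.25 for *Calb1* and -0.29 to 0.29 for *Slc8a1*. For OM HS14 against LS they were -2.79 to 0.32 for *Slc12a3* and -0.31 to 0.069 for *Atp2b1*. For OM HS21 against LS they were -1.81 to 1.03 for *Slc12a3* and -3.16 to 0.29 for *Calb1*. For OM HS21 against HS14 they were -0.30 to 0.24 for *Trpm6*, -0.29 to 0.38 for *Slc8a1* and -0.27 to 0.13 for *Atp2b1*. For the interaction they were -0.30 to 0.16 for *Atp2b1* at HS14, and -2.74 to 0.22 for *Slc12a3* and -0.42 to 0.091 for *S100g* at HS21.

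With the replicate number as a block, 8 genes were lower in the OM, 0 were called for each interaction and *Atp2b1* had -0.055 in the interaction at HS14. The tissues share rats, but no source says that the numbers mark them, and whether they do is unresolved. Of same-numbered Cx and OM libraries 10 of 15 had a correlation over 0.1 (range -0.071 to 0.44), and 13 of 15 correlated best with their own number. Depth limits *S100g* in the Cx and *Trpv5* in the OM, where single reads count.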
